A study of Mus musculus with 9 samples.

Results

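Of the 14831 genes measured in mouse spinal cord, 8 that store, import, export or sense iron are described here. They were chosen by name, with earlier results of these data known: the ferritin chains Fth1 and Ftl1, the importers Tfrc and Slc11a2, the exporter Slc40a1 with the ferroxidase Cp, and the iron regulatory protein genes Aco1 and Ireb2. All 8 were found by gene identifier. The mice were C57Bl/6 females, wild-type and 10 weeks old, and whole spinal cord was taken 2 weeks after an injection on the right side of the brain, into the lateral ventricle. There were 3 groups of 3 libraries. The saline group received 10 µl of saline and no oligonucleotide, the control ASO group 500 µg of a control antisense oligonucleotide (#456835), and the C9orf72 ASO group 500 µg of an antisense oligonucleotide against mouse C9orf72 (#571883). An antisense oligonucleotide (ASO) is a short modified nucleic acid strand that pairs with a chosen RNA and lowers its amount. The series asks what loss of C9orf72, a gene whose repeat expansion causes amyotrophic lateral sclerosis and frontotemporal dementia, does in the spinal cord. These mice were wild-type, so they model a lower level of the gene and not the expansion.

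Iron enters most cells bound to transferrin, which the transferrin receptor (Tfrc) takes into endosomes, and the divalent metal transporter (Slc11a2) carries the freed iron into the cytosol. Iron that is not used is stored in ferritin, a hollow shell of heavy (Fth1) and light (Ftl1) chains, or leaves through ferroportin (Slc40a1), helped by ferroxidases such as ceruloplasmin (Cp). Iron regulatory proteins 1 and 2 (Aco1 and Ireb2) sense iron in the cytosol. When iron is low they bind a short stem-loop, the iron-responsive element. In a 5′ UTR this blocks translation, and in the 3′ UTR of Tfrc it protects the mRNA from decay. Iron can therefore alter ferritin protein with little change in ferritin mRNA, and RNA levels as measured here do not report that step. In the spinal cord, ferritin and transferrin are abundant in oligodendrocytes, which need iron to make myelin.

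The elements that iron regulatory proteins bind are shown because their place in an mRNA bears on whether its decay or its translation is controlled. They were located in GENCODE M21 transcripts on GRCm38 by a search for CNNNNNCAGTGN on the transcript strand. The 5 bases between the first C and the loop had to pair with the 5 bases after the motif (G-T pairs allowed), and at least 4 of 5 pairs were required below that C. Capitals mark the CAGTG of the loop, at positions 13 to 17 from the 5′ end of each 29-base stretch. The Fth1 site lies in its 5′ UTR at chr19:9982732-9982760, plus strand, the Ftl1 site in its 5′ UTR at chr7:45459779-45459807, minus strand, and the Slc40a1 site in its 5′ UTR at chr1:45925465-45925493, minus strand.
Fth1: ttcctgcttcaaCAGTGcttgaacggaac
Ftl1: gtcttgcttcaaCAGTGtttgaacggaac
Slc40a1: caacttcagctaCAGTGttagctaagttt
From the Fth1 to the Ftl1 site there were 3 substitutions, T1G, C4T and C18T, counted from 1 at the 5′ end. The CAGTG and the upper stem arm before it were identical in both chains.

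Tfrc held 4 such sites in its 3′ UTR on the plus strand, at chr16:32631219-32631247, chr16:32631598-32631626, chr16:32631663-32631691 and chr16:32631710-32631738, printed in that order.
Tfrc site 1: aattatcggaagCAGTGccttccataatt
Tfrc site 2: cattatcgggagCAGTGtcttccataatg
Tfrc site 3: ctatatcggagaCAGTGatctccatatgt
Tfrc site 4: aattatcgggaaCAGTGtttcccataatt
The same search over 13587 genes of the table with a coding transcript found a match in 26 (0.191%): 6 in a 5′ UTR (0.044%), 10 in a 3′ UTR (0.074%) and 10 in coding sequence (0.074%). Among the 8 iron genes it matched 4. In Slc11a2, Cp, Aco1 and Ireb2 no stretch had these letters and pairs. An element of another form, for example with an unpaired base in the upper stem, would be missed by this search. The lack of a match therefore does not show that these genes lack an element. A match is a description of sequence and was not measured as binding here.

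Levels are in RPKM (reads scaled by transcript length and by the size of the library), the unit the authors' values were taken to have. Depth, read from the spacing of low values, was 90.3 to 124.2 M reads a library, and 0.5 RPKM was then worth 45.2 to 62.1 reads on each kilobase. Values under 0.5 stood at 0.1 in the table. The target C9orf72 was at 11.1 ± 0.537 RPKM after saline (SD, n = 3), 11.2 ± 0.549 after the control ASO and 3.07 ± 0.359 after the C9orf72 ASO. It fell by 1.84 on the log2 scale from the control ASO group (limma, SE 0.08, adjusted p = 1.83e-06). Summed markers of oligodendrocytes (6100 to 7712 RPKM), astrocytes (1938 to 2292), neurons (3271 to 3794) and motor neurons (47.5 to 56.9) were present in each of the 9 libraries. So was the sum of 9 of 10 Hox genes of the trunk (271.6 to 335.3), of which Hoxa10 stood at 0.1 in some libraries, while 1 of 5 forebrain markers was in the table (1.52 to 2.19 RPKM). The labels do not tie libraries to separate animals, so the p-values cover the spread between these samples, which may be technical. In whole tissue, fewer cells of a type and less RNA per cell cannot be told apart.

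The 8 iron genes ranged from a mean of 2.65 to 6730 RPKM and kept the same order in each of the 9 libraries. Fth1 was highest at 6730 ± 763 RPKM (mean ± SD over 9 libraries), ranking 2 or 3 among all genes and holding 1.502% to 1.93% of the RPKM sum of a library. Ftl1 followed at 86.9 ± 5.82 RPKM, then Tfrc at 33.6 ± 1.72, Ireb2 at 15.9 ± 0.811, Slc11a2 at 11.9 ± 0.476 and Aco1 at 7.41 ± 0.218. Cp at 3.26 ± 0.376 RPKM and Slc40a1 at 2.65 ± 0.339 were lowest. Their ranges overlapped (2.62 to 3.676 and 2.297 to 3.364 RPKM), although Cp was above Slc40a1 within each of the 9 libraries, while the ranges of the other neighbours did not overlap. Relative spread was narrowest for Aco1 (coefficient of variation 2.9%) and widest for Slc40a1 (12.8%), Cp (11.6%) and Fth1 (11.3%). All 8 genes were above 0.5 RPKM in each library and passed the filter on low values. The lowest value, Slc40a1 in control ASO replicate 3, still rested on about 207 reads per kilobase.

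**Figure D1:**
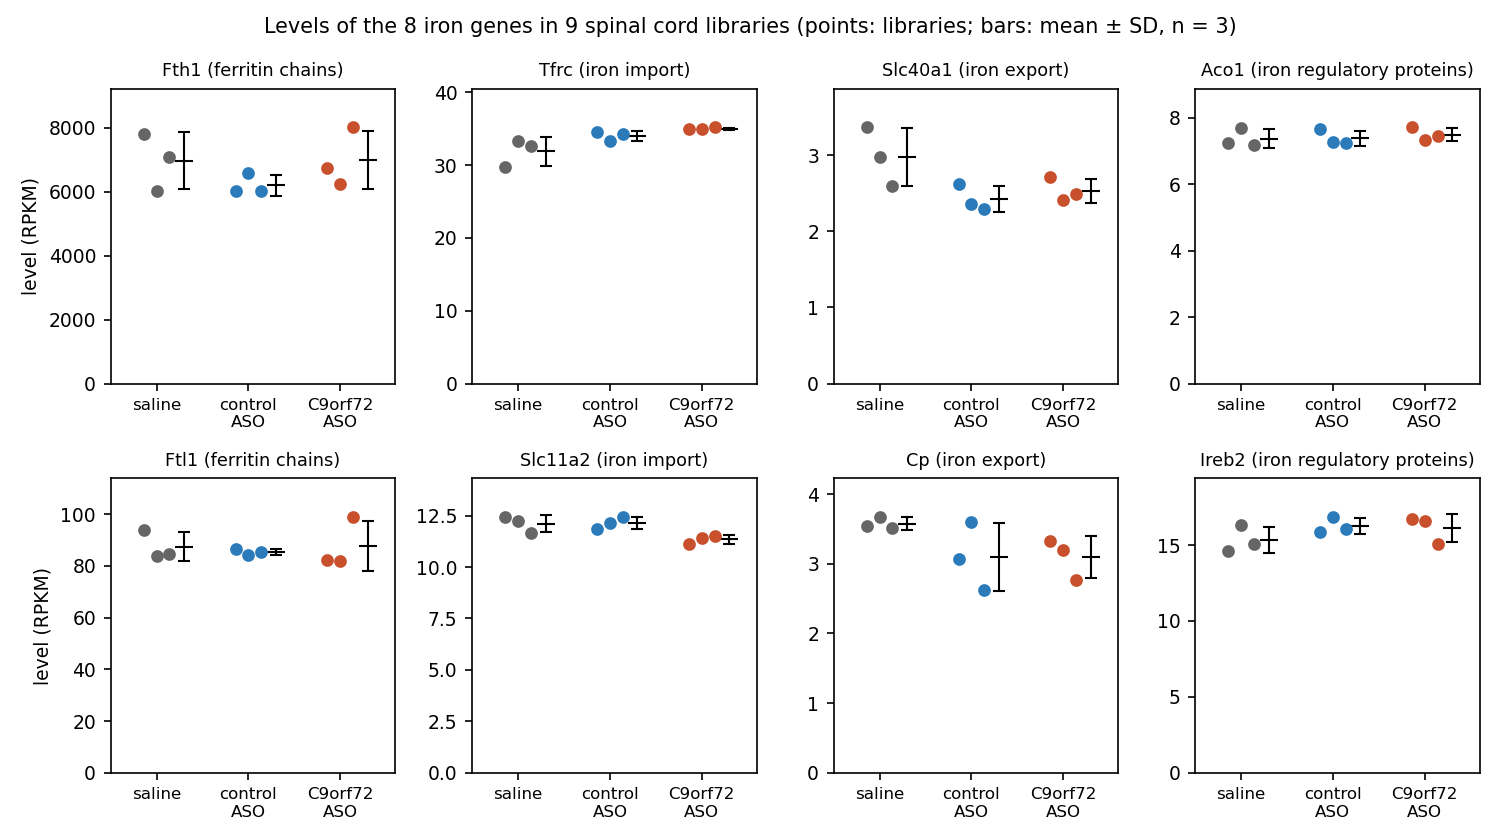
Level of each of the 8 iron genes in RPKM, 1 point per library, coloured by group, with the group mean. Fth1 has the highest level, with a mean near 6730 RPKM, and the ranges of Cp and Slc40a1, the lowest genes, overlap.

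None of the 8 genes passed the threshold (Benjamini-Hochberg adjusted p under 0.05 over all 14430 genes tested, limma) in any of the 3 comparisons. Against the control ASO, which sets aside effects common to both oligonucleotides, 0 of 8 passed where 0.0693% of all genes did (0.0347% higher and 0.0347% lower). Other effects of the C9orf72 ASO cannot be told apart from loss of C9orf72 in this comparison. Against saline 0 of 8 passed, beside 0.0693% of all genes (0.0347% in each direction), and for the control ASO against saline 0 of 8, beside 0.00693% (0.00693% higher and 0% lower). At an unadjusted p under 0.05 lay 0, 2 and 1 of the 8 in that order, where 14.1%, 14% and 5.35% of all genes did. The median log2 fold change of the 8 was 0.03, 0.00 and -0.02, beside -0.01, -0.03 and -0.02 over all genes. The 95% intervals reached from -0.23 to 0.41 against the control ASO, from -0.44 to 0.26 against saline and from -0.50 to 0.22 between the control groups, the widest bounds that any of the 8 genes left. The comparisons share libraries and their values stand side by side, not as separate evidence.

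**Figure D2:**
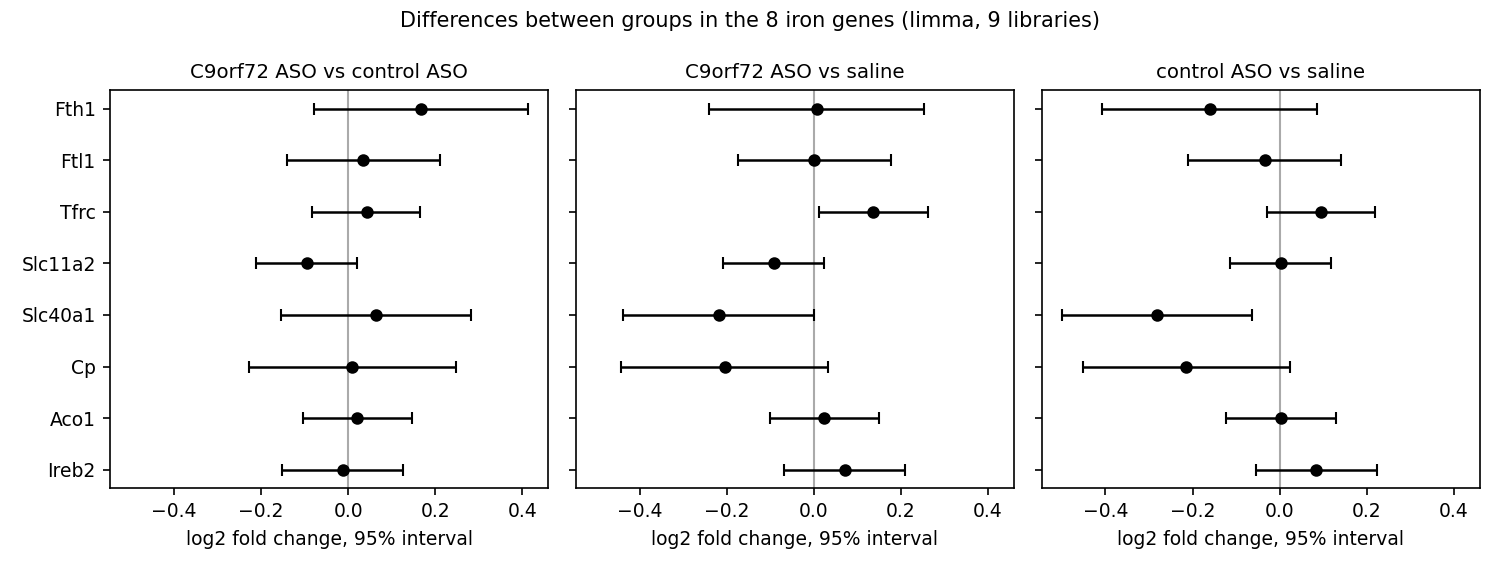
Log2 fold change of each iron gene on the log2(RPKM + 0.1) scale with its 95% interval from limma, in each of the 3 comparisons. No gene had an adjusted p under 0.05, and the intervals of Fth1, Slc40a1 and Cp are the widest.

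Ferritin heavy chain mRNA varied between libraries of a group about as much as between groups. Fth1 (ENSMUSG00000024661), the chain whose ferroxidase centre oxidises iron for storage, was at 7792.5, 6032 and 7082.6 RPKM after saline, at 6006.2, 6582.8 and 6025.5 RPKM after the control ASO, and at 6748.3, 6247.3 and 8009.5 RPKM after the C9orf72 ASO. C9orf72 ASO replicate 3 and saline replicate 1 were highest, control ASO replicates 1 and 3 lowest, and all 3 groups overlapped. Against the control ASO the difference in log2 level was 0.17 (SE 0.11, 95% interval -0.08 to 0.41, adjusted p = 0.51, limma). Without C9orf72 ASO replicate 3 it was 0.07 (adjusted p = 0.804), and without C9orf72 ASO replicate 2 it was 0.25 (adjusted p = 0.425). Against saline it was 0.01 (interval -0.24 to 0.25, adjusted p = 0.988), and the control ASO against saline was at -0.16 (interval -0.41 to 0.09, adjusted p = 0.794). The latter was -0.08 with saline replicate 1 left out and -0.26 (adjusted p = 0.261) with saline replicate 2 left out.

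Ftl1 (ENSMUSG00000050708), the light chain that helps to form the iron core, was at 94.1, 83.8 and 84.6 RPKM after saline, 86.5, 84.1 and 85.4 after the control ASO, and 82.4, 81.8 and 99.04 after the C9orf72 ASO. Replicate 3 of the C9orf72 ASO and replicate 1 of saline were again the highest libraries, and the groups overlapped. Its log2 fold changes were 0.03 against the control ASO (interval -0.14 to 0.21, adjusted p = 0.864, limma), 0.00 against saline (adjusted p = 0.999) and -0.03 for the control ASO against saline (adjusted p = 0.927). The value of Ftl1 is uncertain, because 725 of 919 windows of 50 bases in its transcript (78.9%) also occur in transcripts of 15 other genes. The 1 such gene in the table, the pseudogene Ftl2-ps, was at 39.4 ± 4.92, 37.9 ± 0.517 and 38.9 ± 3.77 RPKM after saline, control ASO and C9orf72 ASO (adjusted p = 0.894 for C9orf72 ASO against control ASO, limma). For Fth1, 58 of 880 windows (6.6%) were shared, with 1 gene, and for the other 6 iron genes none.

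The ratio of Fth1 to Ftl1 RPKM was 82.8, 72 and 83.7 after saline, 69.4, 78.3 and 70.6 after the control ASO, and 81.9, 76.4 and 80.9 after the C9orf72 ASO. The groups overlapped in this ratio, which takes in the uncertainty of Ftl1. As a share of its mean over the 9 libraries, Fth1 stood at 119.1% and Ftl1 at 114.0% in C9orf72 ASO replicate 3, and at 115.9% and 108.3% in saline replicate 1. Trf, the transferrin gene, stood at 114.2% and 116.3% in those libraries, and Ftl2-ps at 110.6% and 116.4%.

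**Figure D3:**
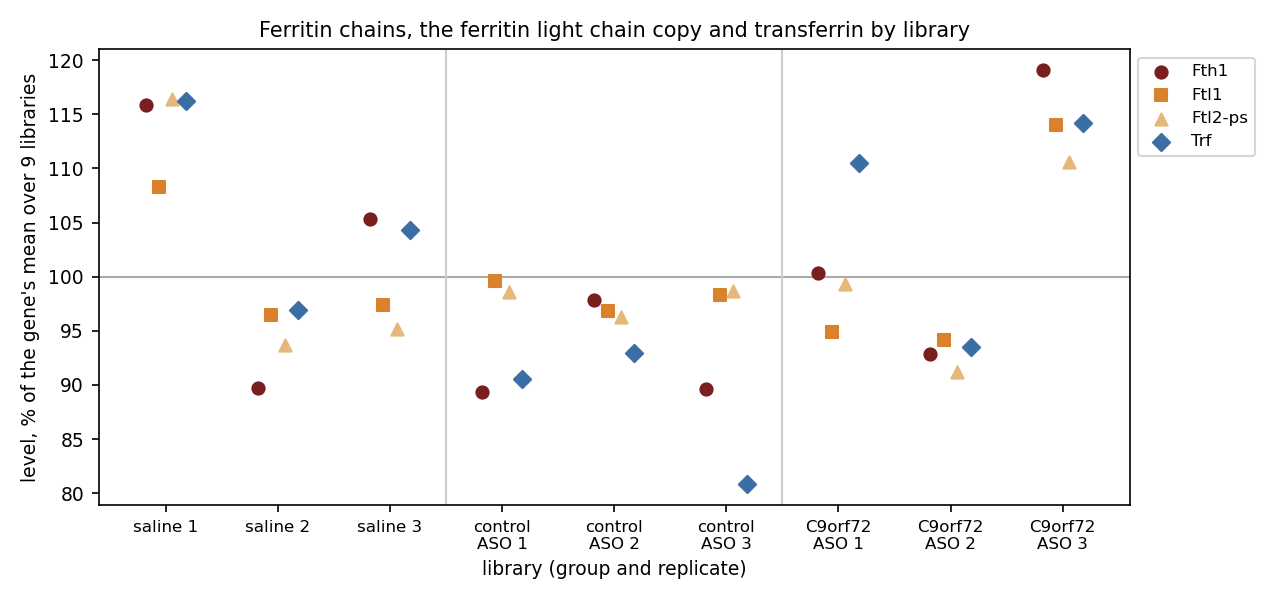
Level of Fth1, Ftl1, Ftl2-ps and Trf in each of the 9 libraries as a percent of its own mean over the 9. Saline replicate 1 and C9orf72 ASO replicate 3 are high in all 4 genes, and the control ASO libraries are the lowest 3 for Trf.

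Of the importers, Tfrc was slightly higher and Slc11a2 slightly lower in the C9orf72 ASO libraries, neither past the threshold. Tfrc (ENSMUSG00000022797) was at 29.7, 33.3 and 32.7 RPKM after saline, 34.5, 33.3 and 34.2 after the control ASO, and 34.9, 34.9 and 35.2 after the C9orf72 ASO. All 3 of the last group lay above the 6 others. Against saline the log2 fold change was 0.14 (SE 0.06, interval 0.01 to 0.26, unadjusted p = 0.0348, adjusted p = 0.32, limma), 109.8% of the saline mean. Without saline replicate 1, the lowest library, it was 0.08 (adjusted p = 0.546), and without saline replicate 2 it was 0.17 (adjusted p = 0.305). Against the control ASO it was 0.04 (interval -0.08 to 0.17, adjusted p = 0.756), and the control ASO against saline was at 0.09 (adjusted p = 0.794), or 0.04 with saline replicate 1 left out.

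Slc11a2 (ENSMUSG00000023030) was at 12.4, 12.3 and 11.7 RPKM after saline, 11.8, 12.1 and 12.5 after the control ASO, and 11.1, 11.4 and 11.5 after the C9orf72 ASO. All 3 of the last group lay below the 6 others, at 93.7% of the saline mean. The limma log2 difference was -0.10 from the control ASO (SE 0.05, interval -0.21 to 0.02, adjusted p = 0.434), -0.09 against saline (adjusted p = 0.455) and 0.00 between the control groups (adjusted p = 0.99). Among the 8 iron genes, the libraries of Tfrc and Slc11a2 did not overlap between C9orf72 ASO and control ASO, 1 higher and 1 lower, and this held for 22% of all genes (10.1% higher, 11.8% lower). Against saline it held for 3 of the 8, Tfrc higher and Slc11a2 and Cp lower, and for 18% of all genes (5.61% higher, 12.4% lower). Between the control groups it held for 0 of 8, beside 10.3% (3.16% higher, 7.15% lower).

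The ratio of Tfrc to Fth1, in thousandths, was 3.81, 5.52 and 4.61 after saline, 5.74, 5.06 and 5.68 after the control ASO, and 5.17, 5.59 and 4.39 after the C9orf72 ASO. The 3 groups overlapped in this ratio, whose spread takes in that of Fth1. Iron itself was not measured.

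The export genes had lower means in both ASO groups than after saline, without passing the threshold. Slc40a1 (ENSMUSG00000025993), which encodes the iron exporter ferroportin, was at 3.36, 2.97 and 2.599 RPKM after saline, 2.62, 2.35 and 2.30 after the control ASO, and 2.71, 2.41 and 2.49 after the C9orf72 ASO. Saline replicate 3 lay among the ASO libraries, so the groups overlapped. The means were 81.3% of saline after the control ASO (log2 fold change -0.28, SE 0.10, interval -0.50 to -0.06, unadjusted p = 0.016, adjusted p = 0.794, limma) and 85.1% after the C9orf72 ASO (-0.22, adjusted p = 0.358). The second was -0.13 (adjusted p = 0.601) with saline replicate 1 left out and -0.31 (adjusted p = 0.279) with saline replicate 3 left out. Between the ASO groups it was 0.06 (interval -0.16 to 0.28, adjusted p = 0.795).

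Cp (ENSMUSG00000003617), which encodes the copper ferroxidase ceruloplasmin that astrocytes carry on their surface, was at 3.54, 3.68 and 3.51 RPKM after saline, 3.06, 3.60 and 2.62 after the control ASO, and 3.33, 3.20 and 2.77 after the C9orf72 ASO. The last 3 lay below the saline libraries, and control ASO replicate 2 lay among the saline libraries. The means were 86.5% and 86.6% of saline in the control ASO and C9orf72 ASO groups (log2 fold change -0.21, adjusted p = 0.794, and -0.20, adjusted p = 0.421, limma). The first was -0.10 with control ASO replicate 3 left out and -0.33 with replicate 2 left out. The second was -0.13 with C9orf72 ASO replicate 3 left out and -0.26 with C9orf72 ASO replicate 1 left out. Between the ASO groups Cp was at 0.01 (SE 0.11, interval -0.23 to 0.25, adjusted p = 0.982).

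Marker levels of other cell types stood beside these values. The summed level of 10 endothelial markers was 108.8 to 123.4 RPKM after saline, 88.3 to 109.6 after the control ASO and 83.4 to 97.2 after the C9orf72 ASO. Each of the 10 was lower in every C9orf72 ASO library than in every saline library, where 12.4% of all genes were. Their median log2 fold change was -0.53 against saline, beside -0.03 over all genes, and no single marker passed the threshold. For the control ASO against saline all 10 were negative, with a median of -0.26, and against the control ASO the C9orf72 ASO median was -0.21. At an unadjusted p under 0.05 (limma), 10 of 10 were lower for the C9orf72 ASO against saline, where 10.2% of all genes were. The count was 4 for the control ASO against saline (3.98% of all genes) and 4 for the C9orf72 ASO against the control ASO (7.71%). Summed leptomeningeal and fibroblast markers ranged over 268.7 to 355.9, 259.1 to 313.2 and 274.8 to 338.0 RPKM in the same order. Of 9 tested, 8 were negative against saline after the C9orf72 ASO (median -0.30), 4 of them without overlap and none past the threshold, and 8 were negative after the control ASO (median -0.13). Among the listed markers, Lum, Col1a1, Col3a1 and Slc6a13 stood at 0.1 in some libraries, which limits what their fold changes can show. Summed ependymal and choroid plexus markers, of which 5 of 10 were in the table, ranged over 15.8 to 21.6, 15.7 to 17.4 and 16.9 to 20.3. The summed level of 10 microglial markers was 173.7 to 198.3, 177.3 to 191.1 and 224.0 to 236.9 RPKM. Against saline their median was 0.33, with 7 of 10 higher without overlap (5.61% of all genes) and 1 past the threshold, Tyrobp (log2 fold change 0.68, adjusted p = 0.031, limma). Against the control ASO the median was 0.29, with 6 of 10 higher without overlap (10.1% of all genes) and 0 past the threshold. At an unadjusted p under 0.05 (limma), 7 of 10 were higher against saline and 7 against the control ASO. Over all genes 3.79% and 6.39% were. Summed red blood cell markers, 6 of 10 in the table, ranged over 886.4 to 972.9, 754.4 to 2957 and 783.5 to 1303 RPKM. The part of these cells in the values of the iron genes was not tested.

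Neither sensor differed between the groups beyond the spread of its libraries. Aco1 (ENSMUSG00000028405), whose protein is an aconitase when it holds an iron-sulfur cluster and binds RNA when it does not, was at 7.24, 7.70 and 7.17 RPKM after saline, 7.65, 7.25 and 7.24 after the control ASO, and 7.71, 7.32 and 7.45 after the C9orf72 ASO. Ireb2 (ENSMUSG00000032293), whose protein is degraded when iron is plentiful, was at 14.6, 16.3 and 15.1 RPKM, 15.8, 16.9 and 16.1, and 16.7, 16.6 and 15.1 in the same groups. Both overlapped between all groups. Against the control ASO the log2 fold change of Aco1 was 0.02 (SE 0.06, interval -0.10 to 0.15, adjusted p = 0.889, limma) and that of Ireb2 was -0.01 (SE 0.06, interval -0.15 to 0.13, adjusted p = 0.947). Against saline they were 0.02 (adjusted p = 0.888) and 0.07 (adjusted p = 0.656). For the control ASO against saline they were 0.00 (adjusted p = 0.993) and 0.08 (adjusted p = 0.794). The ratio of Aco1 to Ireb2 RPKM was 0.481 ± 0.0121, 0.455 ± 0.0265 and 0.466 ± 0.0271 (SD, n = 3) after saline, control ASO and C9orf72 ASO.

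Beyond these 8, 61 further genes of iron handling were listed in 6 roles, of which 52 were in the table and 50 were tested. None passed the threshold in any comparison (limma). At an unadjusted p under 0.05, 6 were higher and 2 lower against the control ASO, 2 higher and 4 lower against saline, and 0 higher and 2 lower for the control ASO against saline. Over all genes these shares were 6.39% and 7.71%, 3.79% and 10.2%, and 1.37% and 3.98%. The medians were 0.01, -0.01 and -0.03 in that order, beside -0.01, -0.03 and -0.02 over all genes. Without overlap between libraries, 5 were higher and 3 lower against the control ASO, where 10.1% and 11.8% of all genes were. Against saline 2 were higher and 4 lower, where 5.61% and 12.4% of all genes were. For the control ASO against saline 1 was higher and 2 lower, beside 3.16% and 7.15%.

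For ferritin turnover and storage, 5 genes were tested with a median of -0.01 against the control ASO. Ncoa4, the receptor that takes ferritin to the lysosome, was at 26.2, 25.8 and 25.7 RPKM after saline, control ASO and C9orf72 ASO (adjusted p = 0.975 against the control ASO, limma). Pcbp1, a chaperone that loads iron into ferritin, was at 68.3, 63.4 and 62.8 RPKM (adjusted p = 0.951). Nfe2l2, a transcription factor of the oxidative stress response that can induce ferritin genes, was at 10.0, 10.2 and 11.9 RPKM, 0.22 higher on the log2 scale than the control ASO group (adjusted p = 0.249, SE 0.07). Each library of the C9orf72 ASO lay above both control groups. Herc2, which encodes a ubiquitin ligase that acts on Ncoa4, was at 18.0, 18.5 and 16.5 RPKM (log2 fold change -0.16, adjusted p = 0.376).

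For uptake, 9 genes were tested with a median of -0.09 against the control ASO. Trf, which encodes transferrin and is made in oligodendrocytes in the nervous system, was at 336.4, 280.4 and 301.9 RPKM after saline, 261.9, 269.1 and 233.9 after the control ASO, and 319.9, 270.6 and 330.4 after the C9orf72 ASO. The control ASO libraries lay below both other groups. In limma it stood at 0.27 from the control ASO (SE 0.10, adjusted p = 0.28) and 0.00 against saline (adjusted p = 0.996), and the control ASO against saline was at -0.26 (unadjusted p = 0.018, adjusted p = 0.794). Summed oligodendrocyte markers ranged over 6589 to 7712, 6474 to 6764 and 6100 to 6936 RPKM in the 3 groups, and their part in the Trf values was not tested. Slc39a14, a zinc transporter family member that also carries iron not bound to transferrin, was at 8.0, 7.49 and 6.84 RPKM (log2 fold change -0.13, adjusted p = 0.424). Mcoln1, an endolysosomal channel that releases iron, was at 14.9, 13.5 and 12.6 RPKM, with -0.09 against the control ASO (adjusted p = 0.538) and -0.24 against saline (adjusted p = 0.209). Steap3, the endosomal ferrireductase, was low at 0.759, 0.761 and 0.746 RPKM (adjusted p = 0.96).

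Of the other export genes, Heph, a membrane ferroxidase related to ceruloplasmin, was at 2.8, 3.0 and 3.08 RPKM (log2 fold change 0.04, adjusted p = 0.899 against the control ASO, limma), and App, the amyloid precursor protein gene, at 571, 579 and 544 RPKM (-0.09, adjusted p = 0.574). Among 6 sensing genes, Fbxl5, the ligase subunit that marks Ireb2 protein for degradation, was at 29.9, 30.4 and 29.9 RPKM (adjusted p = 0.855). Epas1, a hypoxia-inducible factor gene abundant in endothelium, was at 35.7, 34 and 29.3 RPKM, with -0.21 against the control ASO (adjusted p = 0.267) and -0.28 against saline (adjusted p = 0.182), beside the endothelial marker values above. Bmp6, the ligand that drives hepcidin in the liver, was at 5.46, 5.13 and 4.92 RPKM (adjusted p = 0.792).

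Among 13 genes of mitochondrial iron import and iron-sulfur clusters the median was 0.02 against the control ASO. Slc25a37, the mitochondrial iron importer mitoferrin, was at 7.70, 8.30 and 7.08 RPKM (log2 fold change -0.23, SE 0.07, adjusted p = 0.247, limma). Hscb, a cochaperone of cluster assembly, was at 6.03, 5.34 and 6.11 RPKM after saline, 5.87, 5.92 and 5.93 after the control ASO, and 7.82, 6.89 and 7.30 after the C9orf72 ASO. The last 3 lay above the other 6, at 0.31 on the log2 scale from the control ASO (adjusted p = 0.19, SE 0.07) and 0.33 from saline (adjusted p = 0.118).

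Of 15 heme genes tested, 14 had a positive and 1 a negative log2 fold change against the control ASO (median 0.05), and 3 had a positive and 12 a negative one for the control ASO against saline (median -0.10). These comparisons share the control ASO libraries, and against saline the C9orf72 ASO values were 8 positive and 7 negative (median 0.02). Over all genes the medians in that order were -0.01, -0.02 and -0.03. Fold changes over all genes also varied with gene length. Against the control ASO the median was 0.076 in the set of shortest genes and -0.068 in the set of longest genes. For the control ASO against saline these were -0.06 and 0.024, and for the C9orf72 ASO against saline 0.016 and -0.038. The part of gene length in the heme values was not tested. Blvrb and Blvra, the biliverdin reductases that act after heme is opened, were at 3.23, 2.61 and 3.33 RPKM (log2 fold change 0.34, SE 0.11, adjusted p = 0.257, limma) and at 17.1, 16.6 and 19.1 RPKM (0.20, SE 0.08, adjusted p = 0.299). Hmox1, the inducible heme oxygenase that frees iron from heme, was at 1.96, 1.97 and 2.07 RPKM (0.08, adjusted p = 0.8). Slc48a1, a heme transporter of the lysosome, was at 50.7, 46.4 and 45.2 RPKM (-0.04, adjusted p = 0.825). The point farthest to the right in the plot by role is Flvcr2, a transporter gene named after its value was seen. It was at 0.64, 0.431 and 0.568 RPKM, with the control ASO group partly at 0.1, and its interval ran from -0.40 to 1.49 (adjusted p = 0.577). The red blood cell marker range given above was wider in the control ASO group than in the C9orf72 ASO group, and the ranges overlapped. The part of these markers in the heme values was not tested.

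**Figure D4:**
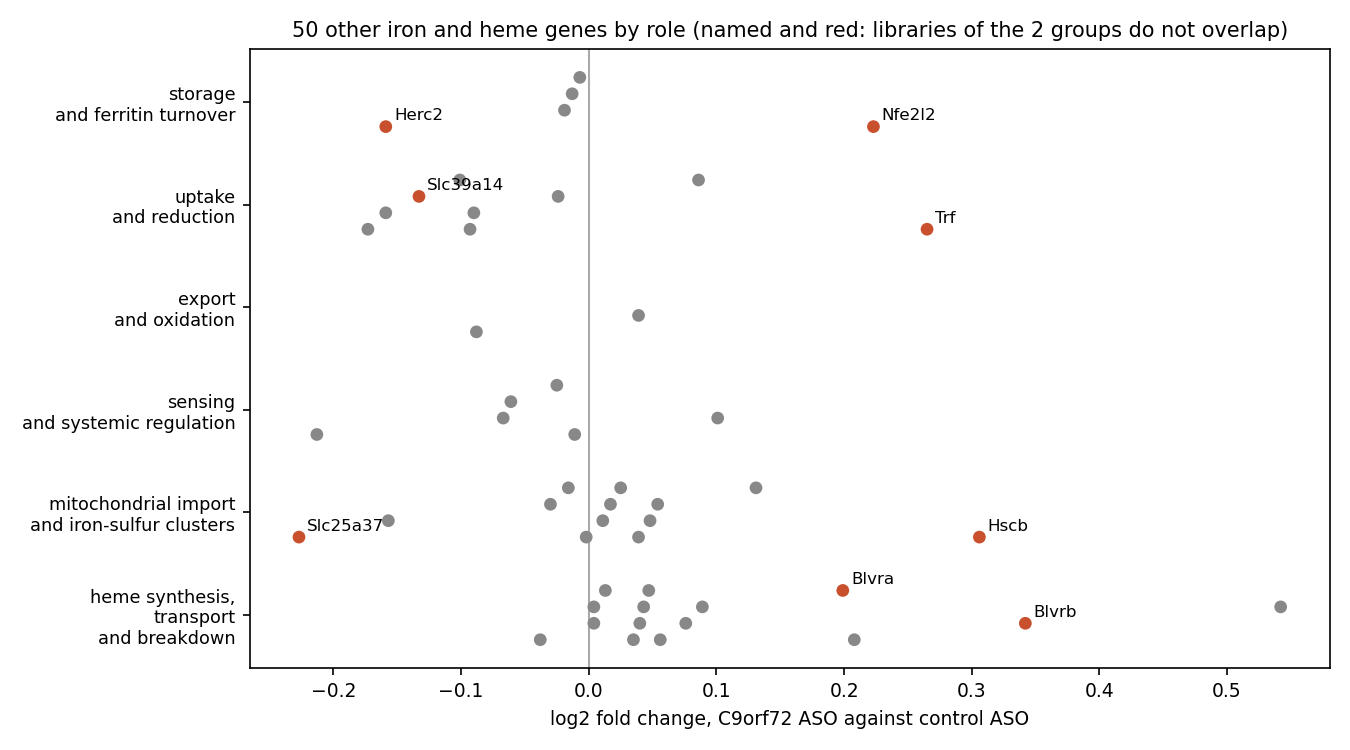
Log2 fold change of the other iron genes tested, C9orf72 ASO against control ASO, by role, 1 point per gene, with genes whose libraries did not overlap between the groups in another colour. None of the 50 passed the threshold, and the heme genes lie mostly to the right of 0.

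Across the 9 libraries, the 2 genes most like each iron gene in log2 level were found by Pearson's r, given as a description, since the libraries share depth and groups. Fth1 was most like Ints11 (r = 0.968) and Nmb (0.96), Ftl1 like Tubb2b (0.972) and Coasy (0.963), Tfrc like Vps50 (0.958) and Top2b (0.953), and Slc11a2 like Pik3c2b (0.967) and Mau2 (0.965). Slc40a1 was most like Tnxb (0.976) and Thsd1 (0.949), Cp like Dis3l (0.952) and Il1r1 (0.926), Aco1 like Wdr48 (0.914) and Sel1l3 (0.882), and Ireb2 like Slc7a2 (0.967) and Strn (0.966). No iron gene of the 8 was among the genes most like another. The 2 were the highest of all tested genes with a symbol over only 9 libraries, so a high r is not evidence of a link. A gene missing from the 2 is likewise no evidence of difference.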

How the data were processed

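Total RNA was extracted with Trizol and made into strand-specific libraries, per the labels' protocols. Per the submitters' processing notes, cutadapt 1.2.1, GSNAP and the mouse build mm9 were used; how reads were counted and scaled, and with which annotation, the sources used here do not state. The authors' deposited table names no unit, and its values were read as RPKM. In genes up to 350 bases, only values above 0.1 with a low product of value and length were used, 82 to 111 a library. Times depth, 53.7% to 69.7% of these products lay within 0.1 of a whole read. The depth of each library was chosen to make these products as whole as possible, so this share is no separate test of the unit. No value lay under 0.5 except 5160 at 0.1. Symbols matched 14321 of 14831 gene IDs.

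Groups were compared with limma 3.58.1 (R 4.3.3; statmod 1.5.0), with mean trend and robust estimation, on log2(RPKM + 0.1). All 9 libraries shared 1 fit over the 14430 genes that reached 0.5 RPKM in 3 or more of them. The pseudocount makes fold changes understate those of low genes. The 8 genes and the lists were chosen with earlier results of these data known. Besides the 8 and C9orf72, the text names 11 set iron genes, any called gene, and in each role the 2 smallest p against the control ASO and the smallest in each other comparison; for likeness, the 2 highest r. Some genes under this rule are not reported here. Hfe (log2 fold change 0.10, adjusted p = 0.603), Bmp2 (-0.07, adjusted p = 0.801) and Pcbp2 (-0.02) also fell under this rule, against the control ASO. Alternatives covered the pseudocount, filter, scaling, test setting, length trend, groups in the fit and each library left out.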

Additional observations from a re-analysis of the deposited data

How the results depend on the processing

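The result of 0 calls among the 8 iron genes, and among the 50 other iron genes, held in each comparison under all 19 alternatives, and the lowest adjusted p of any of the 8 was 0.194 (limma, Tfrc against saline, length trend removed). Of 456 fold changes of the 8 genes under these alternatives, 433 kept their direction and side of the threshold and 23 reversed, none past it; the cause was not tested. With the length trend removed, Ftl1 was at -0.068 against the control ASO, -0.038 against saline and 0.03 for the control ASO against saline, and Ireb2 at 0.048 against the control ASO. With quantile normalization Ireb2 was at 0.017 against the control ASO and Fth1 at -0.073 against saline.

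With 1 library left out, values against the control ASO ranged from -0.055 to 0.082 for Ftl1, -0.102 to 0.12 for Cp and -0.04 to 0.035 for Ireb2. Against saline they ranged from -0.094 to 0.091 for Fth1 and -0.09 to 0.054 for Ftl1. For the control ASO against saline they ranged from -0.064 to 0.019 for Ftl1, -0.024 to 0.022 for Slc11a2 and -0.023 to 0.034 for Aco1.

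The number of all genes called, 10, 10 and 1 in the 3 comparisons, moved more. Against the control ASO it was 16 with no filter, 19 in limma without trend and robust estimation, and 7 to 27 with 1 library left out. Against saline it was 25 with the length trend removed, 4 with only the groups compared, and 4 to 54 with 1 library left out. For the control ASO against saline it was 5 with no filter, 0 with at least 1 RPKM in every library, 2 with the length trend removed, 9 without trend and robust estimation, and 0 to 2 with 1 library left out. No paired analysis was possible because the labels give no replicate numbers that groups share.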
